A study of Mus musculus with 11 samples.

Results

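Chromosomes 10 and 19 were followed through 6 lists of autosomal regions that were enriched when Xist RNA was pulled down from mouse cells. The members are all peaks of the lists on these chromosomes, 1230 of 19818 peaks in all, with 606 on chromosome 10 and 624 on chromosome 19. They were selected on peak counts: the female fibroblast list has none on either chromosome, and both lists of day 2 epiblast-like cells have at least 260 on each. These counts are a description, with no test. The working name, chromosomes empty in fibroblasts, held for female fibroblasts only: the male fibroblast list has 13 peaks on chromosome 10 and 10 on chromosome 19.

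The study asked where Xist lies on the genome, using RNA antisense purification followed by DNA sequencing, in which biotinylated probes against a crosslinked RNA capture the chromatin it touches. Female epiblast-like cells (EpiLCs) were sampled on day 2 of differentiation (D2, 2 libraries) and on day 4 (D4, 2 libraries), and mouse embryonic fibroblasts (MEFs) gave 1 female and 1 male library. EpiLCs were made from embryonic stem cells kept in LIF with the inhibitors CHIR99021 and PD0325901 and then moved to Activin A and bFGF on Geltrex, MEFs were grown in serum, and no group received a further agent. The labels give no strain, no name of a stem cell line, no age of the embryos and no statement that replicates came from separate cultures, so p-values measure only the spread between these libraries, which may be technical. Per the labels, replicate 1 of both days, with its input, was re-analysed from data deposited earlier. Peak lists hold no expression values, so cell identity could not be checked against markers.

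As background, Xist is a long noncoding RNA that is made from 1 of the X chromosomes of a female cell, spreads along that chromosome and recruits proteins that silence its genes. X inactivation begins as cells leave the naive state of pluripotency, the step that EpiLCs model. MEFs are differentiated cells in which female cells keep Xist on the inactive X, and male cells normally do not express Xist. Chromosome 19 is the smallest mouse autosome.

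The lists held between 326 and 8227 peaks over 0.486 to 77.1 Mb. The lowest −log10 p was 4.57 in the male list and 2.80 to 2.88 in the 5 female lists, so the male list starts at stronger peaks. They carry no read counts, so sequencing depth is unknown and intervals from counting cannot be had. Peaks of every list are named with numbers from 1 to its last peak without a gap, and the female MEF list numbers 1 to 1020. Removal before numbering, or renumbering afterwards, would leave no gap. The numbers therefore cannot tell whether peaks or whole chromosomes were left out of a list. No source used here says which pulldown went with which input, and EpiLC inputs name a replicate but no day.

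Both chromosomes held many more peaks at D2 than at D4, and they differed in density from each other. Chromosome 10 held 291 and 263 peaks in D2 replicates 1 and 2, and 27 and 12 in D4 replicates 1 and 2. Of the MEF lists, the female had 0 and the male 13. Chromosome 19 held 329 and 260 peaks at D2, 17 and 8 at D4, and again 0 in the female and 10 in the male MEF list. Each D2 library lay above each D4 library on both chromosomes, and the male MEF counts fell between those of the D4 replicates.

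**Figure D1:**
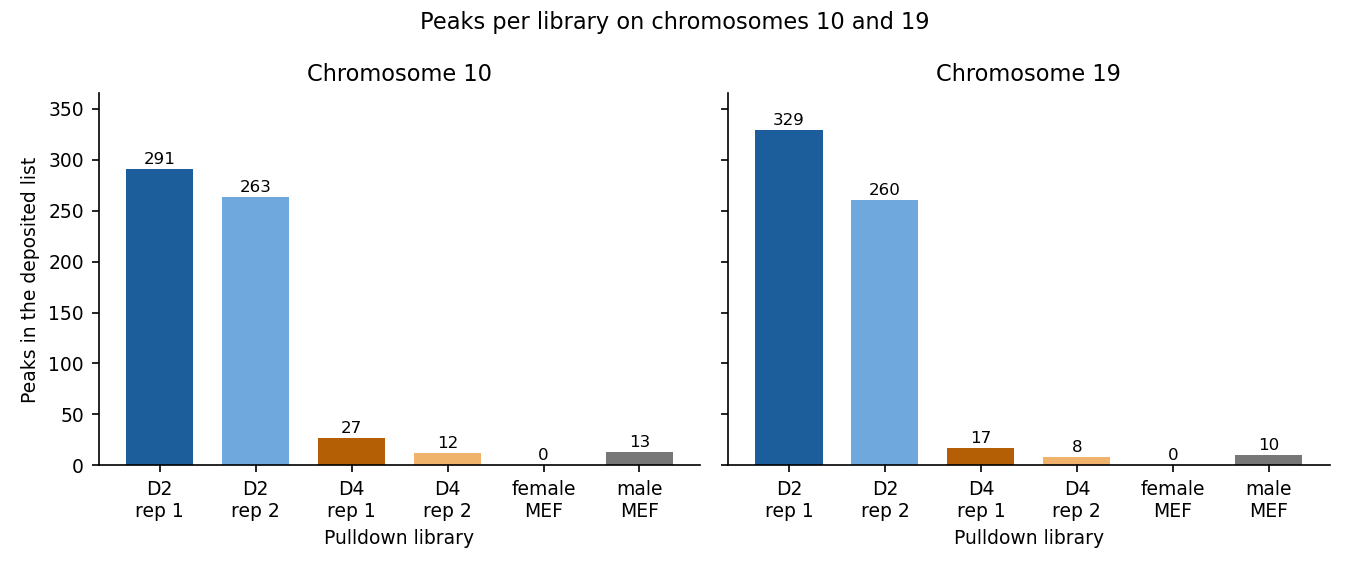
Peaks on chromosomes 10 (left) and 19 (right) in each of the 6 pulldown libraries, 1 bar per library from 0 with its count above it. The D2 bars stand between 260 and 329 peaks, and all bars of D4, female MEF and male MEF libraries stand at 27 or below.

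Density was counted per Mb of extent, taken from the outermost peaks of the 6 lists on a chromosome: chr10:6403337-122381638 (116 Mb) and chr19:3324145-61304075 (58.0 Mb), on the genome build mm9. Chromosome 19 had 5.67 and 4.48 peaks per Mb at D2, the second and the third highest of 19 autosomes, and 0.293 and 0.138 at D4, where it ranked 13 and 16. Chromosome 10 had 2.51 and 2.27 peaks per Mb at D2, rank 16 in both replicates, and 0.233 and 0.103 at D4, rank 16 and 18. Chromosome 19 thus ranked lower in density at D4, where its rank rests on 17 and 8 peaks, and chromosome 10 ranked low on both days.

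The covered length showed the same order of days. Peaks covered 2247 and 1578 kb of chromosome 10 at D2 (1.94% and 1.36% of its extent) and 74.5 and 24.6 kb at D4. On chromosome 19 they covered 2225 and 1392 kb at D2 (3.84% and 2.40%) and 66.6 and 23.1 kb at D4. By share of the extent covered, chromosome 19 ranked 6 and 7 at D2 and 12 and 16 at D4, and chromosome 10 ranked 17 and 16 at D2 and 16 and 19 at D4. Male MEF peaks covered 20.9 and 18.0 kb of chromosomes 10 and 19, less than any EpiLC library did.

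**Figure D2:**
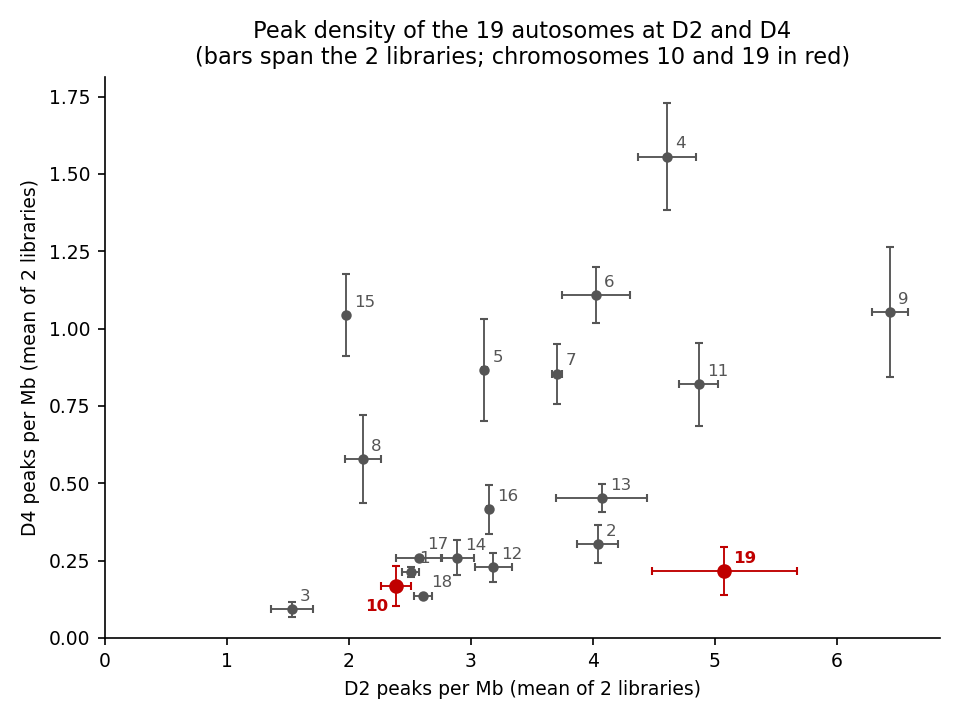
Mean peak density at D2 (x axis, peaks per Mb) and at D4 (y axis, peaks per Mb) of the 19 autosomes, with bars that span the 2 libraries of each day and chromosomes 10 and 19 in red. Chromosome 19 lies far to the right at 5.08 peaks per Mb and near the bottom at 0.216, and chromosome 10 lies low on both axes at 2.39 and 0.168.

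The fall from D2 to D4 was set against the other autosomes. On chromosome 10 the mean was 277.0 ± 19.8 peaks at D2 and 19.5 ± 10.6 at D4 (SD, n = 2 each), 14.2 times as many at D2. On chromosome 19 it was 294.5 ± 48.8 and 12.5 ± 6.36 peaks, 23.6 times as many. The other 17 autosomes together had 5.55 times as many at D2. The chromosome 19 ratio was the highest of 19 and the chromosome 10 ratio the fourth, with chromosomes 18 (19.2) and 3 (16.6) between them and the lowest ratio at 1.89. By covered length the ratios were 38.6 on chromosome 10 and 40.3 on chromosome 19, against 9.38 over the other 17, and chromosome 18 stood above both at 59.8. With only 8 to 27 peaks per library at D4, a few peaks more or less would move these ratios widely, as they do between replicates (10.8 and 21.9 on chromosome 10, 19.4 and 32.5 on chromosome 19).

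Because the lists differ in length, the share of each list on a chromosome was compared too. Chromosome 10 is 4.99% of the autosomal extent and took 3.54% and 3.49% of the D2 peaks, 1.74% and 1.05% of the D4 peaks and 3.99% of the male MEF peaks. Chromosome 19 is 2.50% of the extent and took 4.00% and 3.45% of the D2 peaks, 1.09% and 0.697% of the D4 peaks and 3.07% of the male MEF peaks. Chromosome 10 was thus below its share of the extent in all 5 lists that hold it, and chromosome 19 above it at D2 and in male MEFs and below it at D4. The D2 shares exceeded the D4 shares by 2.12 percentage points on chromosome 10 and 2.83 on chromosome 19, more than the spread between replicates (SD 0.036 and 0.490 on chromosome 10, 0.391 and 0.281 on chromosome 19, at D2 and D4). These differences are a description: the D2 counts were part of why the chromosomes were chosen, so no test is drawn on. A two-sided exact permutation test of 2 libraries against 2 could not give a p below 0.333.

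In female MEFs the 17 other autosomes held all 1020 peaks. By count the chromosomes next in order were 3 with 6 peaks, 18 with 9, and 13 and 14 with 15 each. By peaks per Mb they were 3 (0.0411), 1 (0.102), 18 (0.111) and 14 (0.132). When each EpiLC list was cut to its 1020 peaks of highest −log10 p, chromosome 10 had 32 and 35 at D2 and 16 and 10 at D4, and chromosome 19 had 41 and 37 at D2 and 9 and 7 at D4. Of all 4885 autosomal regions called in both D2 lists, 6.96% met a female MEF peak, and by the choice of chromosomes none of the 164 on chromosome 10 or the 174 on chromosome 19 did. With 1 female MEF library, absence on a whole chromosome has no replicate check. The files cannot tell whether the 0 reflects these cells or how the list was made.

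At D2, median peak length and fold enrichment on both chromosomes were near those of the other autosomes. The median length at D2 was 3706 and 3235 bp on chromosome 10 and 3742 and 3408 bp on chromosome 19, against 3950 and 3578 bp over the other 17 autosomes. Their fold enrichment, the authors' linear ratio of a peak over the peak caller's background, had D2 medians of 2.61 and 2.80 on chromosome 10 and 2.62 and 2.82 on chromosome 19, against 2.61 and 2.79 elsewhere. D2 peaks at 3-fold or more made up alike shares, 4.47% and 14.1% on chromosome 10, 3.95% and 15.4% on chromosome 19 and 4.42% and 13.5% elsewhere. The highest D2 values were 3.89 and 4.34 on chromosome 10 and 3.72 and 4.00 on chromosome 19. Over the far more numerous peaks elsewhere they were 14.1 and 11.8. Long peaks were present but not extreme. At D2, 18.2% and 13.7% of peaks on chromosome 10 reached 10 kb. On chromosome 19, 15.2% and 11.2% did, against 20.9% and 16.9% elsewhere. The longest at D2 were chr10:60328193-60445028 (117 kb, replicate 1) and chr10:60373799-60441151 (67.4 kb, replicate 2), which overlap, and chr19:53833957-53982078 (148 kb, replicate 1) and chr19:53903698-53978576 (74.9 kb, replicate 2), which overlap as well. At D4 the median length was 2261 and 1911 bp on chromosome 10 and 2996 and 1974 bp on chromosome 19, against 2884 and 2782 bp elsewhere. Of the D4 peaks of replicates 1 and 2, 0 and 0 on chromosome 10 and 1 and 0 on chromosome 19 reached 10 kb, against 9.15% and 6.83% elsewhere. These D4 counts rest on 8 to 27 peaks per library and chromosome. The longest D4 peak was 9.47 kb on chromosome 10 and 17.7 kb on chromosome 19, and in male MEFs 3.98 and 3.90 kb.

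Peaks were laid out unevenly along chromosome 10 and more widely along chromosome 19. Of the 117 bins of 1 Mb on chromosome 10, 46 and 47 held a peak in D2 replicates 1 and 2 and 64 held none in either. Of the 59 bins on chromosome 19, 38 and 37 held a peak and 18 held none. These are 39.3% and 40.2% of bins on chromosome 10, near the median autosome (40% and 40.4%), and 64.4% and 62.7% on chromosome 19, the highest of 19 in both replicates. The longest stretch without a D2 peak was chr10:96187677-110601511 (14.4 Mb) and chr19:48216005-53125886 (4.91 Mb, the shortest such stretch in Mb of any autosome). As shares of the extent they were 12.4% and 8.47%, which ranked 8 and 17 of 19 from the longest. None of the D4 or MEF lists had a peak in either stretch.

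The fullest bins by covered length lay next to each other on chromosome 10. The bin chr10:60000001-61000000 held 31 and 36 peaks over 598 and 463 kb at D2, chr10:61000001-62000000 held 24 and 28 peaks over 303 and 243 kb, and chr10:59000001-60000000 held 17 and 29 peaks over 255 and 185 kb. Together they took 51.5% and 56.4% of the D2 length called on the chromosome, the third highest share of 19 in each replicate. Another bin, chr10:84000001-85000000, chosen after its values were seen, was as full by count, with 33 and 34 peaks, but its peaks covered 246 and 157 kb at D2, and 3 and 0 peaks were called there at D4. On chromosome 19 the fullest were apart: chr19:44000001-45000000 with 36 and 23 peaks over 371 and 143 kb, chr19:53000001-54000000 with 12 and 12 peaks over 219 and 173 kb, and chr19:41000001-42000000 with 24 and 23 peaks over 183 and 159 kb. Their share was 34.7% and 34.1%, below the median autosome (35.8% and 36.6%).

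**Figure D3:**
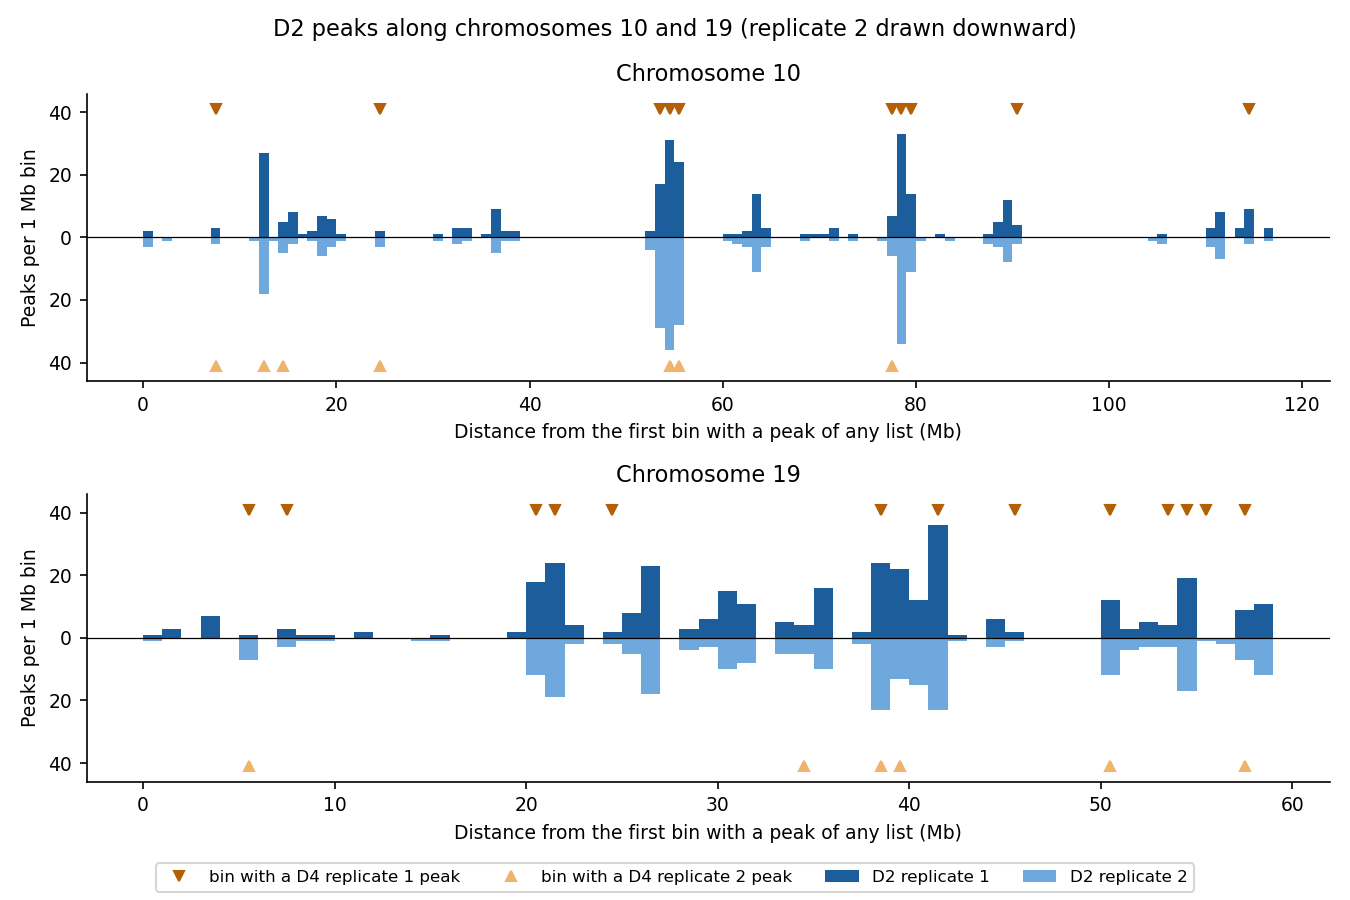
Peaks per 1 Mb bin along chromosomes 10 (top) and 19 (bottom) at D2, with replicate 1 upward and replicate 2 downward, over the distance in Mb from the first bin with a peak of any list. Triangles mark bins that hold a D4 peak of replicate 1 (above) or 2 (below). On chromosome 10 a group of 3 neighbouring bins, the middle one with 31 and 36 peaks, and a separate bin with 33 and 34 peaks stand out, and chromosome 19 has several groups.

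Agreement between the D2 replicates was measured over bins and over single peaks, which are not on a common scale. Across bins the peak counts of the replicates had a Pearson correlation of 0.946 on chromosome 10 (117 bins) and 0.948 on chromosome 19 (59 bins), Spearman 0.861 and 0.877, near the median autosome (Pearson 0.945). Neighbouring bins of a library are not independent, and all share its depth. Bins empty in both lists, 64 on chromosome 10 and 18 on chromosome 19, enter these correlations. Of the chromosome 10 peaks of replicate 1, 133 of 291 (45.7%) overlapped a replicate 2 peak by at least 1 bp, and of chromosome 19, 144 of 329 (43.8%), where 45.3% did over all autosomes. Seen from replicate 2 the counts were 158 of 263 (60.1%) and 160 of 260 (61.5%), where 59.3% did over all autosomes. These shares of peaks met by at least 1 bp are near those over all autosomes. Seen from replicate 2, chromosome 19 ranked 3 of 19 and chromosome 10 ranked 6, with 57.3% in the median autosome. Agreement by length placed chromosome 19 lower. The base-pair Jaccard index, the shared over the joint length, was 0.338 on chromosome 10 and 0.278 on chromosome 19. It was 0.395 over all autosomes pooled and 0.346 in the median autosome. Chromosome 10 ranked 11 of 19, and only 1 autosome was below chromosome 19.

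On these 2 chromosomes, long peaks met the other replicate more often than short ones. Of the D2 peaks of at least 10 kb, 45 of 53 in replicate 1 and 35 of 36 in replicate 2 met the other replicate on chromosome 10, and 45 of 50 and 26 of 29 did on chromosome 19. Among peaks under 10 kb the shares were 37.0% and 54.2% on chromosome 10 and 35.5% and 58.0% on chromosome 19. A long peak offers more bases to overlap, and this was not corrected for. Peaks that met the other replicate made up 72.2% and 81.1% of the D2 length on chromosome 10 and 70.3% and 77.7% on chromosome 19. Neither split was made over the other autosomes, so these values are not read as particular to chromosomes 10 and 19.

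The segments covered in both D2 lists, called D2 consensus regions here, numbered 164 over 965 kb on chromosome 10 and 174 over 786 kb on chromosome 19. A gap in either list splits a consensus region. Grouped across gaps of up to 50 kb, the consensus regions formed 61 clusters on chromosome 10 and 70 on chromosome 19, of which 40 and 42 were single regions. Clusters of at least 5 regions numbered 9 and 12 and held 56.7% and 52.9% of the regions. These numbers depend on the gap. At 20 kb there were 94 and 100 clusters, and those of at least 5 regions held 28.7% and 25.9%. At 100 kb there were 43 and 53, and they held 68.3% and 61.5%. The largest on chromosome 10 at 100 kb, chr10:59601473-61659122, held 71 regions. Clusters were not compared with those of other autosomes.

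On chromosome 10, 3 neighbouring clusters dominated. The first by length under consensus, chr10:60239454-60797867, spanned 558 kb with 22 consensus regions, and D2 peaks covered 421 and 338 kb of it. D4 peaks covered 3.14 and 0.372 kb, and 1 male MEF peak 0.255 kb. The second, chr10:59725304-60162344, spanned 437 kb with 21 regions, and peaks covered 310 and 247 kb at D2 and 26.0 and 2.50 kb at D4. The third, chr10:61173789-61507620, spanned 334 kb with 16 regions, and peaks covered 207 and 188 kb at D2 and 21.3 and 9.40 kb at D4. Both D2 libraries covered most of each span, and at D4 what was called in them was a set of short peaks, 14 in replicate 1 and 6 in replicate 2 over the stretch.

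Taken as 1 stretch, chr10:59725304-61507620 measures 1.78 Mb, or 1.54% of the chromosome's extent, and held 65 of its 164 consensus regions and 68.1% of their length. D2 peaks covered 57.4% and 45.7% of the stretch, D4 peaks 2.83% and 0.688%, male MEF peaks 0.0143% and female MEF peaks none. It also held 14 of the 27 and 6 of the 12 D4 peaks of the chromosome. The stretch was set after the values were seen. Without it, chromosome 10 kept 239 and 194 peaks at D2 and 13 and 6 at D4, so the fall between the days was also present outside it.

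The next clusters of chromosome 10 were called at D2 only. They were chr10:95026129-95133923, with 4 regions and 73.1 and 62.0 kb under D2 peaks, and chr10:69267616-69390580, with 6 regions and 50.9 and 52.1 kb. Neither held a D4 or MEF peak.

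On chromosome 19 the leading clusters were smaller and spread out. The first, chr19:53800310-53996224, spanned 196 kb with 5 regions, and peaks covered 182 and 152 kb (92.8% and 77.6%) at D2 and 19.4 and 9.67 kb at D4. The second, chr19:8642802-8766096, spanned 123 kb, which replicate 1 called as a single peak over its full length and replicate 2 as 6 peaks over 93.4 kb, and D4 peaks covered 16.1 and 7.03 kb. These 2 clusters held 5 of the 17 D4 replicate 1 peaks and 4 of the 8 D4 replicate 2 peaks of the chromosome. The third, chr19:43823190-44098442, spanned 275 kb with 14 regions and differed between replicates, with 219 and 107 kb covered at D2 and none at D4. The fourth, chr19:41353298-41557847, had 14 regions, 113 and 99.6 kb under D2 peaks and 0.628 and 0.695 kb under D4 peaks. The fifth, chr19:61054503-61160217, had 8 regions and 71.3 and 50.5 kb at D2, and no D4 peak. No cluster named on chromosome 19 held a MEF peak.

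**Figure D4:**
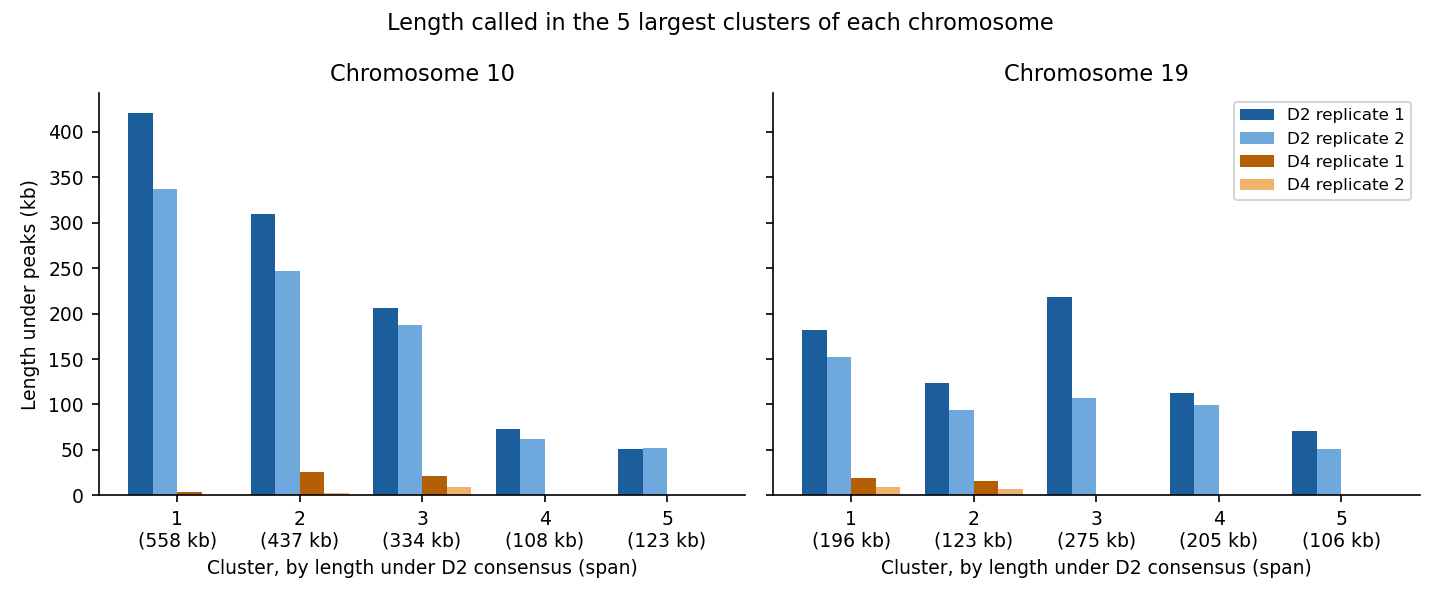
Length under peaks (kb) in the 5 clusters with the most D2 consensus length on chromosomes 10 (left) and 19 (right), 1 bar per EpiLC library, with each cluster's span under its order number. D2 bars reach 421 and 338 kb in the first cluster of chromosome 10, and no D4 bar exceeds 26.0 kb.

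The consensus regions of highest fold enrichment were mostly not the long ones. By mean rank the first on chromosome 10 was chr10:30559482-30564612 (5.13 kb), whose fold enrichment was 3.79 and 3.53 at D2, and 4.07 and 3.32 in the D4 peaks inside it. It was followed by chr10:70700357-70700714 (3.15 and 4.34), chr10:61201480-61204070 (3.72 and 3.32), chr10:96077756-96080389 (3.14 and 3.60) and chr10:6403918-6406258 (3.20 and 3.44). The first and the third of these were called in both D4 lists and the other three in none. The 5 longest on this chromosome were chr10:60373799-60441151, chr10:60451517-60513937, chr10:60036961-60088278, chr10:95038663-95082735 and chr10:60703576-60744137, between 67.4 and 40.6 kb long, with D2 fold enrichments of 2.61 to 2.93.

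On chromosome 19, 2 of the 5 regions of highest fold enrichment were also among the 5 longest. The first by fold enrichment was chr19:8731242-8766096 (34.9 kb, 3.26 and 4.00 at D2, 2.94 and 3.11 at D4). The fifth was chr19:53839410-53899681 (60.3 kb, 3.10 and 3.38 at D2, 2.95 and 2.77 at D4). Between them came chr19:27503628-27514403 (3.35 and 3.32), chr19:38470548-38470702 (3.17 and 3.40) and chr19:60963827-60966666 (3.72 and 3.24), of which the first was called in 1 D4 list and the others in none. The longest were chr19:53903698-53978576 (74.9 kb), then the fifth by fold, then chr19:44034693-44072123 (37.4 kb), the first by fold, and chr19:8650097-8679564 (29.5 kb). A long peak of replicate 1 that meets several replicate 2 peaks gives each consensus region the same replicate 1 value.

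Fold enrichments of consensus regions agreed only loosely between the D2 replicates. Across regions the Pearson correlation was 0.360 on chromosome 10 (164 regions) and 0.325 on chromosome 19 (174 regions), Spearman 0.290 and 0.222.

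**Figure D5:**
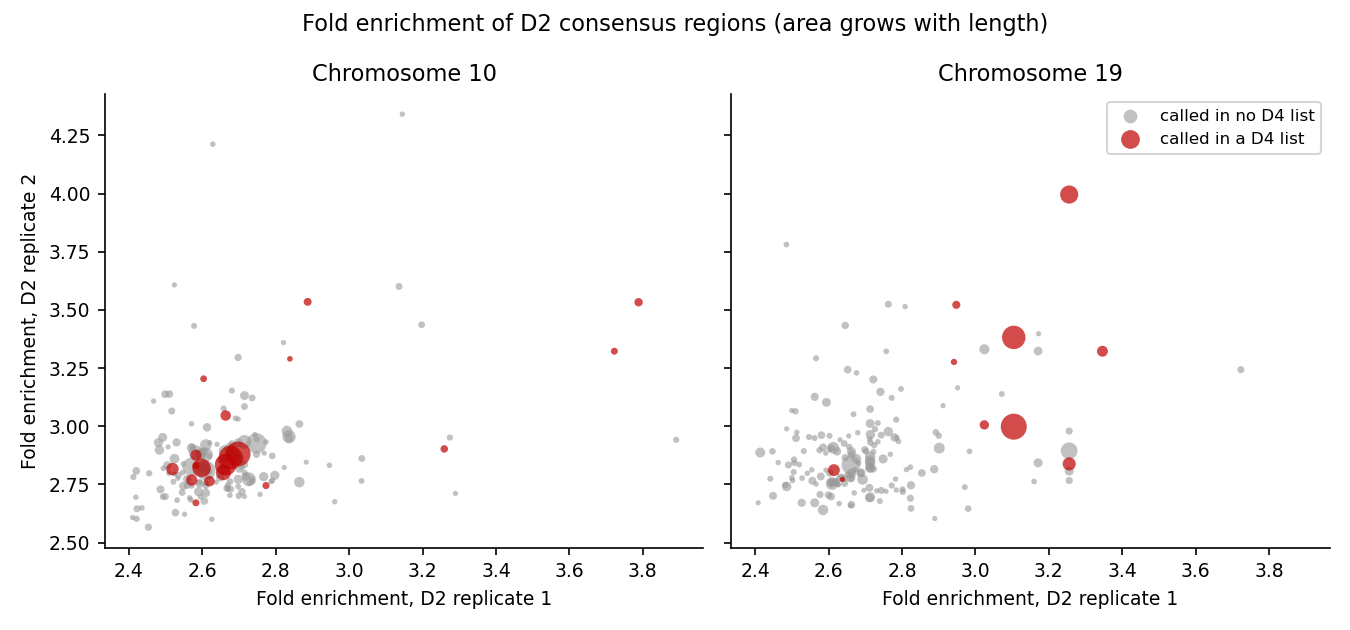
Fold enrichment of each D2 consensus region in D2 replicate 1 (x axis) and replicate 2 (y axis) on chromosomes 10 (left) and 19 (right), with point area growing with region length and regions called in a D4 list in red. On chromosome 19 the red points have medians of 3.06 and 3.14 against 2.67 and 2.84 for the gray ones, and on chromosome 10 the medians are 2.66 and 2.87 against 2.64 and 2.82.

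A small part of the D2 consensus was called at D4. On chromosome 10, 19 of 164 regions (11.6%) overlapped a peak of either D4 list, and on chromosome 19, 10 of 174 (5.75%), where 15.6% of all autosomal D2 consensus regions did. Both D4 lists called 6 regions (3.66%) on chromosome 10 and 3 (1.72%) on chromosome 19, where 4.26% were so called over all autosomes. D4 replicate 1 supplied most of these calls: without it the shares called at D4 were 4.27% and 1.72%. Chromosome 19 ranked 17 and chromosome 10 ranked 11 of 19 in the first share, whose median over the autosomes was 12.5%. Regions called at D4 were longer, with a median of 9.69 kb against 2.02 kb for the others on chromosome 10 and of 12.0 kb against 2.11 kb on chromosome 19. A longer region can be met by more peaks, and no test was made. By length, D4 peaks lay over 4.04% of the D2 consensus on chromosome 10 and 6.90% on chromosome 19, where the median autosome had 6.49%. Chromosome 10 ranked 14 and chromosome 19 ranked 9 of 19. The share over all autosomes pooled was 15.7%, and the highest single chromosome reached 51.7%.

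Seen from D4, most peaks lay where D2 peaks had been called, as on the autosomes as a whole. In D4 replicate 1, 23 of 27 peaks on chromosome 10 and 14 of 17 on chromosome 19 overlapped a peak of either D2 list, where 73.0% did over all autosomes. In D4 replicate 2, 10 of 12 and 6 of 8 did, where 68.3% did over all autosomes. These shares, 85.2% and 82.4% in replicate 1 and 83.3% and 75.0% in replicate 2, lay above those over all autosomes. They rest on small counts and are not read as a difference. The 11 D4 peaks without D2 overlap were each called in 1 library only, and lay between 0.112 and 404 kb from the nearest D2 peak.

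The D4 replicates met at few places. Of the D4 replicate 1 peaks, 5 of 27 on chromosome 10 and 2 of 17 on chromosome 19 overlapped replicate 2, where 22.2% did over all autosomes. Of the replicate 2 peaks, 5 of 12 and 2 of 8 overlapped replicate 1, where 32.6% did. The 5 shared segments of chromosome 10 were chr10:30562210-30564062, chr10:60035804-60037356, chr10:61201811-61202121, chr10:61441220-61441281 and chr10:61595712-61596095. The 2 of chromosome 19 were chr19:8748011-8754399 and chr19:53878644-53879942. All 7 were also called in both D2 lists, as were 68.9% of the segments shared by the D4 lists over all autosomes.

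The segment chr10:30562210-30564062 stood apart from the rest at D4. Its fold enrichment was 3.79 and 3.53 at D2 and 4.07 and 3.32 at D4, and its −log10 q was 4.48 and 2.89 at D2 and 3.98 and 2.25 at D4. It lies outside the 1.78 Mb stretch, and the D4 peaks over it were the only ones of the chromosome with a −log10 q of at least 2 in either replicate. The other 4 segments of chromosome 10 had D4 fold enrichments of 2.70 to 2.88. On chromosome 19, chr19:8748011-8754399 had 3.26 and 4.00 at D2 and 2.94 and 3.11 at D4, and chr19:53878644-53879942 had 3.10 and 3.38 at D2 and 2.95 and 2.77 at D4.

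The male MEF peaks mostly lay elsewhere. Of 13 on chromosome 10, 3 overlapped a D2 peak of either list, and of 10 on chromosome 19, 2 did, where 40.5% of all male MEF peaks did. No male peak on either chromosome overlapped a D4 peak, where 6.44% did over all autosomes. Among the D2 consensus regions, 2 of 164 on chromosome 10 and 0 of 174 on chromosome 19 met a male peak, where 1.23% did over all autosomes. The strongest male peaks were short: chr10:60469424-60469678 (255 bp, fold enrichment 4.83), chr19:34366231-34366408 (178 bp, 3.87) and chr10:56283606-56284661 (1056 bp, 3.22). The first lies inside the first cluster of chromosome 10, within a consensus region with D2 fold enrichments of 2.68 and 2.87, and the other two met no other list. The remaining 20 male peaks had fold enrichments between 2.86 and 2.92. Male EpiLCs were not analysed here.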

How the data were processed

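DNA captured with Xist was sequenced. The submitters' processing notes name mm9, MACS2 2.2.7.1, bedtools 2.26.0, Bowtie2 2.2.9, Picard, SAMtools 1.9 and Trim Galore 0.4.1. The deposited broad peak lists, 1 per pulldown, give the authors' fold enrichment (a linear ratio), −log10 p and −log10 q of each peak. The deposited score column repeats −log10 q and was not used.

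Peaks on chromosomes 10 and 19 were counted per library, per 1 Mb bin and against the other autosomes. Overlap needed at least 1 bp. D2 and D4 were compared as means ± SD over 2 libraries each. The planned two-sided exact permutation test (SciPy 1.17.1) supports nothing here, since D2 counts chose the chromosomes. Regions were named by rule: on each chromosome, 5 D2 consensus regions by best mean rank in fold and 5 by length, all segments shared at D4, 3 bins by D2 cover and 5 clusters by consensus length. Of the male MEF peaks, which the rule names up to 10 per list, the 3 above the common level are given and the rest as a range. The chromosomes, lists and rules were chosen with earlier results of these data known. Overlap steps were tested on simulated intervals. Same-numbered libraries deviated together over 1 Mb bins (r = 0.263 over all autosomes, 0.561 over chromosomes 10 and 19). Per the labels, replicate 1 of both days comes from an earlier deposit, so the number may mark a shared batch. With 2 numbers, pairing was taken as an alternative only.

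Genes and sequences were not analysed here, because the annotation at hand is on another build. The planned gene lists were therefore not used. Inputs were not used here.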

Additional observations from a re-analysis of the deposited data

How the results depend on the processing

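No alternative turned a direction. Of 80 alternative values, 52 stayed and 28 moved. A difference in peaks or length, or a count, moved if it changed by more than a set factor. An overlap share moved if it left the 95% binomial interval of its main value. Differences in share of the list could only stay or reverse, and the replicate block repeats the main difference. Part of the 52 was therefore fixed in advance, and the tally does not measure robustness. With only peaks of −log10 q of at least 2, D2 exceeded D4 by 30.5 peaks and 150.7 kb on chromosome 10 and by 36.5 peaks and 358.7 kb on chromosome 19, and 7 and 12 D2 consensus regions were left. With only peaks of fold enrichment of at least 3, the differences were 24 peaks and 96.8 kb, and 24 peaks and 295.9 kb. With EpiLC lists cut to equal number they were 21 peaks and 141.1 kb, and 32.5 peaks and 376.7 kb. Without the stretch of the 3 largest clusters, an alternative added after the data were seen, D2 exceeded D4 on chromosome 10 by 207 peaks and 975.7 kb. The share of D2 replicate 1 peaks met by replicate 2 was 20.6% and 27.9% at −log10 q of at least 2. With at least 50% of the peak covered it was 23.4% and 21.6%, where 24.4% were so covered over all autosomes. Seen from replicate 2 it was 60.1% and 61.5%, where 59.3% did over all autosomes. No share over all autosomes is given for the stricter q, nor for the D4 calls at 50% that follow. The share of D2 consensus regions called at D4 was 3.66% and 1.15% where at least 50% of the region had to be covered. With both D4 lists required it was 3.66% and 1.72%, where 4.26% were so called over all autosomes. Leaving out 1 library at a time, which leaves a value with no test, it ranged from 4.27% to 10.98% on chromosome 10 and from 1.72% to 5.75% on chromosome 19, lowest without D4 replicate 1. The same step gave differences of 243.5 to 271.5 and 247.5 to 316.5 peaks. With the replicate block (paired sign flips), the differences stay 257.5 and 282 peaks, and 2 pairs could not give an exact permutation p below 0.5. The rules on q, on fold enrichment and on equal number leave fewer peaks, and the causes of the moves were not tested. Depth is unknown, so what weaker peaks were missed cannot be given.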
